A study of Mus musculus with 13 samples.

Results

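The comparison set out here is between co-cultures of T cells and islet macrophages that carry batch day 2 in the labels and those that carry batch day 1. Of 13 libraries, 9 were co-cultures, and all 9 entered the comparison. Day 2 held 4 of them, control replicate 3 and STZ replicates 2, 3 and 4, and day 1 held 5, control replicates 1, 2 and 4 and STZ replicates 1 and 5. The other 4 libraries were T cells alone, all of day 1. They serve as a reference level and in an alternative fit of all 13 libraries. The labels do not say what the batch day was the day of.

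All T cells were naive CD4+ cells from spleens of female NOD mice of strain NOD/ShiLtJ that carry the BDC2.5 T cell receptor, transgene Tg(TcraBDC2.5,TcrbBDC2.5)1Doi/DoiJ, on the NOD.Cg background. BDC2.5 is a receptor that recognises a peptide made in beta cells, so nearly all cells of such a mouse can answer islet antigen. The cells were kept for 96 h with macrophages enriched by magnetic beads from islets of NOD mice. The macrophage donors had received at 4 weeks of age either 1 low dose of streptozotocin (STZ), a toxin that enters and kills beta cells, or buffer alone, and their islets were taken 10 days later, at 5.5 weeks. Co-cultures with macrophages of buffer-treated donors are called control co-cultures below, and those with macrophages of STZ-treated donors STZ co-cultures. Bulk RNA was sequenced from live cells that were sorted after the culture as positive for CD4, Thy1.2 and CD45. The labels call the replicates biological and do not say whether they shared mice.

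A naive CD4+ T cell that meets its antigen leaves rest: it grows, builds ribosomes and chaperones, takes up iron and sugar, enters the cell cycle and begins to secrete cytokines. It also lets go of the receptors that keep resting cells in circulation, such as S1pr1 and Ccr7. Inhibitory receptors, which limit the response, are induced as well. The question was which of these programs varied with the day rather than with STZ.

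Estimated counts summed to between 30.6 M and 61.3 M per co-culture (M, mega). Levels are given as CPM, the counts-per-million of a gene in the scaled library total, and differences as log2 fold changes of day 2 over day 1 at equal macrophage treatment, with a standard error (SE). Cd4, the co-receptor that defines the sort, was at 1074, 962 and 992 CPM in control and 831 and 819 in STZ co-cultures of day 1. On day 2 it was at 974 with control and 928, 897 and 856 with STZ macrophages. The days overlapped, and the log2 difference was 0.05 (SE 0.08, adjusted p = 0.679). Cd3e, a chain of the T cell receptor complex, also overlapped, with a log2 difference of 0.22 (SE 0.12, adjusted p = 0.204).

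In edgeR's quasi-likelihood test with Benjamini-Hochberg adjustment over 16196 genes, 1971 genes were higher on day 2 and 2559 lower at an adjusted p below 0.05. That is 12.2% and 15.8% of the genes tested, 28% together, so the share of any gene group has to be read against this wide background. The median log2 difference over all genes was -0.06. In the same fit, STZ against control macrophages gave 1539 genes higher and 1298 lower, or 9.5% and 8.01%. That total of 2837 was 518 to 3404 when single libraries were left out, with 1196 without control replicate 1 and 1133 without control replicate 4. Without STZ replicates 1, 2, 3, 4 or 5 it was 518, 1666, 1726, 1022 and 639. All day 2 libraries lay above all day 1 libraries for 1091 genes (6.74%) and below them for 621 (3.83%). Genes that both passed the test and did not overlap numbered 904 above (5.58% of those tested) and 476 below (2.94%). Of the genes called for day, 2731 were not called for STZ (16.9% of those tested) and 1799 were (11.1%). Among the 1799, 655 were higher on day 2 and lower with STZ (4.04% of those tested). Another 1080 were lower on day 2 and higher with STZ (6.67%). Both terms were estimated from the same libraries, with 3 STZ co-cultures and 1 control co-culture on day 2.

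The number of genes past the threshold depended on the libraries and the model. It fell to 2510 without STZ replicate 3, 2640 without STZ replicate 5, 2726 without STZ replicate 1 and 2881 without STZ replicate 4. It was 292 when the cells alone were added to the fit, 208 without the treatment term, and 0 with the replicate number as a block (897 genes at an unadjusted p below 0.05) or in limma on the authors' adjusted log2 table (75 at an unadjusted p below 0.05). The name of that table points to surrogate variable analysis, which estimates unlabelled sources of variation, and a difference between days may have been removed from its values; whether it was is not given. With treatment taken out of the model, 74.5% of the genes past the threshold were higher on day 2, and with the cells alone in the fit 65.1%, against 43.5% here. In the fit with the block, day rested on replicates 2 and 4, the only numbers whose control and STZ libraries differed in day. Few libraries were then left to estimate error, so its 0 does not show that the days were alike. Only control replicate 3 stands for the control co-cultures on day 2. In a principal component analysis of the 9 libraries, the first component held 46.6% of the variance and put STZ replicates 1 and 5 at one end (126.5 and 101.2) and control replicate 3 at the other (-110.2).

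These same libraries stood apart by base composition. In the quintile of genes with the highest GC content, the median deviation from a gene's mean was -1.08 on the log2 CPM scale in control replicate 3, 0.40 in STZ replicate 1 and 0.38 in STZ replicate 5, and -0.15 to 0.23 in the other 6 libraries. The median day difference by quintiles of GC content, from low to high, was 0.24, 0.18, 0.07, -0.04 and -0.75, and that of STZ ran the other way, from -0.23 to 0.69. With a GC trend per library removed, 4085 genes passed for day, of which 3327 were among the 4530 without that correction. The part of GC content in any single gene's difference was not tested beyond this correction.

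**Figure D1:**
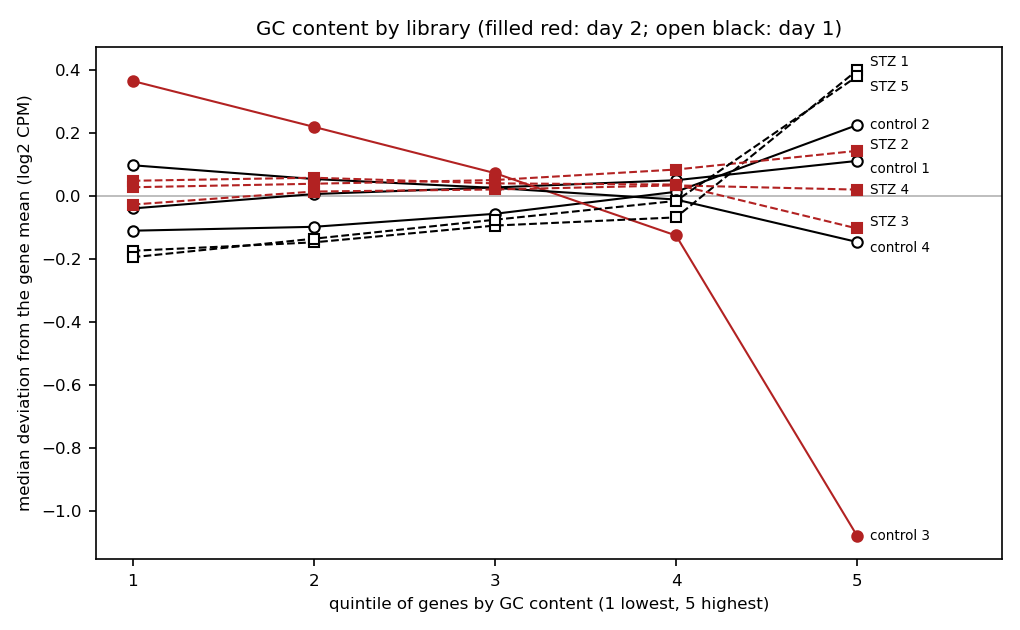
Median deviation from each gene's mean (log2 CPM, vertical axis) for quintiles of genes ordered by GC content (horizontal axis), 1 line per co-culture library, filled red for day 2 and open black for day 1. In the highest quintile control replicate 3 sits at -1.08 and STZ replicates 1 and 5 at 0.40 and 0.38.

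Because of this, the results below lead with genes whose call did not rest on 1 choice. Across 23 versions of the day test, all but the replicate block and the authors' table, 88 genes were called in the same direction every time. Of these, 74 were higher (0.457% of the genes tested) and 14 lower (0.0864%) on day 2. None of the 88 overlapped between days. Their selection used versions without the treatment term and within each treatment, so this lack of overlap is not separate support. One version, the day difference within control co-cultures, was taken from the model with 1 mean per treatment and day. Of 33 tested ribosome biogenesis genes, 8 were among the 74 (Nolc1, Nop16, Wdr75, Dkc1, Nop2, Utp4, Gnl3 and Npm1), with the cytosolic chaperones Hsp90aa1 and Hsp90ab1, the endoplasmic reticulum chaperones Hsp90b1 and Pdia6, the secreted proteins Ccl3, Lta and Xcl1, and the follicle-homing receptor Cxcr5. Among the 14 that were lower stood S1pr1, Il6st, Trp53inp1 and Suclg2. Of the 23 versions, 2 were added after the data were seen, and the number 88 describes this set of versions only.

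Single genes of ribosome biogenesis differed between days in both treatments, as their selection required, while their list as a whole did not, as given below. Dkc1, which modifies ribosomal RNA and telomerase RNA, was at 278, 236 and 314 CPM in control and 211 and 198 in STZ co-cultures on day 1. On day 2 it reached 619 with control and 435, 428 and 385 with STZ macrophages. Every day 2 library was above every day 1 library, and the log2 difference was 1.08 (SE 0.11, adjusted p = 0.00257, edgeR). Npm1, the abundant nucleolar chaperone of ribosome assembly, stood at 386, 336 and 475 CPM with control and 310 and 338 with STZ macrophages on day 1, and at 736 and then 632, 732 and 685 on day 2. Here too the days did not overlap, and the log2 difference was 1.00 (SE 0.12). Wdr75, which acts in transcription and processing of ribosomal RNA, and Gnl3, a nucleolar GTP-binding protein of dividing cells, differed by 1.02 (SE 0.10) and 0.96 (SE 0.11), again without overlap.

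Over the whole ribosome biogenesis list, 13 of 33 tested genes were higher and 3 lower on day 2, with a median of 0.46 beside -0.06 for all genes. STZ raised 4 and lowered 2 of the same genes. The higher count was 22 without control replicate 3 and 11 without STZ replicate 1 or 5. Within STZ co-cultures the median day difference of the list was 0.80, and within control co-cultures it was -0.11. Leaving out STZ replicates 1 and 5 together leaves day resting on control replicate 3. The median of the list was -0.06 there, so the list as a whole did not hold. The 8 genes named above were selected for a call in that version too, so their call there is not separate support.

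The 2 Hsp90 genes of the cytosol, whose products hold kinases and receptors in a usable shape, followed the same order. Hsp90ab1 was at 2312, 1580 and 2186 CPM in control and 1524 and 1584 in STZ co-cultures of day 1, and at 3640 in the control and 3522, 3531 and 3319 in the STZ co-cultures of day 2. No day 1 library reached the lowest of day 2, and the log2 difference was 1.04 (SE 0.13, adjusted p = 0.00316, edgeR). Hsp90aa1, the stress-inducible copy, differed by 0.98 (SE 0.12), with 639 to 936 CPM on day 1 and 1242 to 1640 on day 2. Stip1, which links Hsp90 to Hsp70, differed by 0.90 (SE 0.11), and Hspd1, the chaperonin of mitochondria, by 0.89 (SE 0.15); both were without overlap. Hspd1 differed by 0.46 within control co-cultures (adjusted p = 0.0579) and by 1.15 in STZ co-cultures, and the test of that difference gave an adjusted p of 0.058. Of 15 heat shock genes tested, 7 were higher and 4 lower on day 2, with a median of 0.59, and STZ raised 2 and lowered 1. The lower count was 1 without STZ replicate 3 and 2 without STZ replicate 4.

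Genes of the proteasome, which breaks down tagged proteins, were mostly higher on day 2. Of 34 tested subunit genes, 22 were higher and 1 lower (67.6% called, median 0.45), and with STZ 2 were higher and 16 lower (median -0.32). Leaving out single libraries left 15 to 22 higher. Psmc1, an ATPase of its cap, was at 466, 371 and 483 CPM in control and 319 and 329 in STZ co-cultures of day 1, and at 798 and then 585, 578 and 551 on day 2. Both groups of day 2 lay above day 1, by 0.83 (SE 0.10, adjusted p = 0.00305, edgeR). Psmb7, a catalytic core subunit, differed by 0.79 (SE 0.10). For both, STZ lowered the level, by a log2 difference of -0.46 for Psmc1 and -0.50 for Psmb7. When the cells alone were added to the fit, only 1 proteasome gene remained higher, and without the treatment term 0, while the medians there were 0.63 and 0.35.

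The proteins of the ribosome itself moved less firmly. Of 79 tested, 25 were higher and 4 lower on day 2, with a median of 0.36, and STZ raised 3 and lowered 4. The higher count was 16 without control replicate 1 or 2, 5 without STZ replicate 1, 6 without STZ replicate 3 or 5 and 8 without STZ replicate 4. Rpl4, of the large subunit, read 1977, 1651 and 2142 CPM with control and 1442 and 1551 with STZ macrophages on day 1, against 3179 and then 2386, 2506 and 2383 on day 2. Its days did not overlap, and the log2 difference was 0.71 (SE 0.10). Many ribosomal protein and chaperone genes have processed copies, and the counting could not be checked for how reads were shared among them: Hspd1-ps3, named as a copy of Hspd1, is itself among the 74 genes, as is Eif4a-ps4, named as a copy of a translation initiation factor.

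Serine and one-carbon enzymes supply purines and thymidine to dividing cells. Of 15 tested, 7 were higher and 1 lower on day 2 (median 0.49), with 10 higher without control replicate 3, and 4 without STZ replicate 5. Shmt1, the cytosolic serine hydroxymethyltransferase, was at 92.5 to 114 CPM in all day 1 libraries and at 162 with control and 206, 198 and 190 with STZ macrophages on day 2, a log2 difference of 0.92 (SE 0.12, adjusted p = 0.00316, edgeR). Psat1, of serine synthesis, differed by 0.73 (SE 0.08), also without overlap. Mthfd2, the mitochondrial folate enzyme, went the other way by -1.03 (SE 0.21), with 143, 144 and 89.8 CPM in control and 212 and 205 in STZ co-cultures on day 1 and 54.3 and then 135, 81.8 and 115 on day 2. Its days overlapped.

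Genes of protein folding in the endoplasmic reticulum split by direction. Cells sense unfolded protein in this compartment and answer through transcription factors that bind the endoplasmic reticulum stress element, spelled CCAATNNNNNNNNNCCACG. Its letters, on either strand (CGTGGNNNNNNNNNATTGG on the other), were found in the 250 bases before the start of 8 of 18 genes of the folding list with a promoter in the RefSeq table (44.4%), against 33 of 27025 promoters in all (0.122%) and 18 of 10233 of genes tested here (0.176%). The 8 were Calr, Canx, Creld2, Dnajc3, Hspa5, Hsp90b1, Pdia6 and Syvn1. Calr, Canx, Creld2, Dnajc3 and Hspa5 were not called for day. The 4 promoters below carry the same letters and belong to 2 genes that were higher on day 2 (Hsp90b1 and Pdia6), 1 that was lower (Syvn1) and 1 that was not called for day (Hspa5). They are the reference (C57BL/6J) sequence of RefSeq GRCm38.p6, not that of NOD mice, and are written 5′ to 3′ along the gene with the fixed letters of the element in capitals. Hspa5 and Syvn1 were chosen after their values were seen. Hsp90b1 lies on the minus strand at chr10:86705445-86705694, Pdia6 on the plus strand at chr12:17266339-17266588, Hspa5 on the plus strand at chr2:34771840-34772089 and Syvn1 on the plus strand at chr19:6046326-6046575.
Hsp90b1: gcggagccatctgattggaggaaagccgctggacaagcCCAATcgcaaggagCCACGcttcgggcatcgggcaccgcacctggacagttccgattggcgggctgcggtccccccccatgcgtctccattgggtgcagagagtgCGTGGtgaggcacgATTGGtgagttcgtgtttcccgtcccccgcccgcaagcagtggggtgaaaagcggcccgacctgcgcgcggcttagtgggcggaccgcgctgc
Pdia6: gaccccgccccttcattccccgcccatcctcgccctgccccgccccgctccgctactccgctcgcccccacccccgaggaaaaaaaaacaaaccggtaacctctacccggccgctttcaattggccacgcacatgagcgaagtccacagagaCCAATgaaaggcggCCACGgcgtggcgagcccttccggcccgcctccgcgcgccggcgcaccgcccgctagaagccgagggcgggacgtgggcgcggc
Hspa5: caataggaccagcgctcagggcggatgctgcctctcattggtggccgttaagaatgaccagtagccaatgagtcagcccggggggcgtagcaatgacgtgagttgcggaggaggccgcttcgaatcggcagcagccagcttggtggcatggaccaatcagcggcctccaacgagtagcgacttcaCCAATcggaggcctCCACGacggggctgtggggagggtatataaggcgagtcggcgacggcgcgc
Syvn1: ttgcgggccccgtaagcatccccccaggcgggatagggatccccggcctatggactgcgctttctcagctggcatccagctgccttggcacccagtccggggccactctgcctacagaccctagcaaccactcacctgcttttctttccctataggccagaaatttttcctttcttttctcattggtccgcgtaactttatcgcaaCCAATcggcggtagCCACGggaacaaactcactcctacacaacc

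Pdia6, a disulfide isomerase, was at 660, 682 and 705 CPM in control and 577 and 602 in STZ co-cultures of day 1, and at 1172 with control and 1023, 994 and 1036 with STZ macrophages on day 2. Hsp90b1, the Hsp90 of this compartment, was at 1690, 1551, 1654, 1425 and 1491 CPM on day 1 and at 2333 and then 2389, 2242 and 2280 on day 2. Both rose without overlap, Pdia6 by 0.78 (SE 0.07, adjusted p = 0.00217, edgeR) and Hsp90b1 by 0.60 (SE 0.08, adjusted p = 0.00316). The promoter printed above holds the element's letters once for Pdia6 and at 2 places for Hsp90b1.

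Hspa5, the main chaperone of the compartment, did not differ as they did. It was at 999.8, 1235 and 913 CPM in control and 1210 and 1230 in STZ co-cultures of day 1, at 260 in the control co-culture of day 2 and at 1610, 1188 and 1418 in the STZ co-cultures of day 2. The day difference was -0.53 (SE 0.43, adjusted p = 0.379); it was -2.01 within control and 0.21 within STZ co-cultures, and the test of that difference gave an adjusted p of 0.00232. The low value is that of control replicate 3 alone. Syvn1, a ligase that marks misfolded proteins for breakdown, was at 25.7, 44.5 and 10.2 CPM with control and 57.4 and 61.6 with STZ macrophages on day 1, against 2.65 and then 28.1, 12.7 and 22.2, a log2 difference of -2.11 (SE 0.57, adjusted p = 0.0262). Its adjusted p was 0.0823 without control replicate 3, 0.0689 without STZ replicate 3, 0.0518 without STZ replicate 4 and 0.0573 without STZ replicate 5. Over the list, 3 of 20 genes were higher and 7 lower (median -0.62), while STZ raised 3 and lowered 0 (median 1.14). The lower count was 2 without STZ replicate 3 and 4 without STZ replicate 1, 4 or 5. Manf, a secreted factor of the same response, differed by -1.30 (SE 0.30) with overlap between days.

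A few genes were close to absent on one day and plain on the other, which sets them apart from the graded differences above. BC018473, an antisense transcript on chromosome 11 (11:116752167-116759373, GRCm38), was chosen after its values were seen. It was at 0, 0.154 and 0 CPM in control and 0 and 0.0847 in STZ co-cultures on day 1 and at 161 in the control and 114, 117 and 112 in the STZ co-cultures on day 2. Its log2 difference was 11.17 (SE 0.60, adjusted p = 0.000151, edgeR), and the T cells alone, all of day 1, had 4.22 to 13.1 CPM. St6galnac2, a sialyltransferase gene at a lower coordinate of the same chromosome, was at 1.17, 1.12 and 0.751 with control and 3.19 and 1.89 with STZ macrophages on day 1, and at 36.8 and then 61.4, 49.5 and 48.4 on day 2, a difference of 4.70 (SE 0.26), with 9.43 to 29.3 CPM in the cells alone. Its symbol belongs to more than 1 entry of the table. St6galnac1 is the related gene on the other side of BC018473 (11:116765025-116775507, GRCm38) and was also chosen after its values were seen. It had 1 count over the 5 day 1 libraries and 266 over the 4 of day 2. The cells alone had 6.24 to 19.9 CPM. The ratio of pooled levels was 307 (95% counting interval 54.7 to 12186). The kit keeps no strand, so reads of an antisense transcript and of an overlapping gene cannot be told apart.

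Suclg2, a subunit of the succinate-CoA ligase of the citric acid cycle on chromosome 6 (6:95473009-95718800, GRCm38), went the opposite way. It was at 30.9, 34.5 and 25.6 CPM in control and 32.4 and 35.8 in STZ co-cultures on day 1, and at 0.735 and then 2.25, 2.21 and 3.14 on day 2. No library of either treatment broke this order, the log2 difference was -4.27 (SE 0.35, adjusted p = 0.00167, edgeR), and the call held in all 23 versions. The cells alone spanned 0.519 to 14 CPM although all were of day 1. STZ itself made no called difference to BC018473 (-0.55, adjusted p = 0.49) or Suclg2 (0.67, adjusted p = 0.158).

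Trgc4, a constant segment of a gamma chain of the T cell receptor, was also chosen after its values were seen. It was at 103, 91.8 and 112 CPM with control and 74.5 and 73.8 with STZ macrophages on day 1, and at 314 with control and 257, 284 and 255 with STZ macrophages on day 2, a difference of 1.76 (SE 0.10, adjusted p = 0.000151). The days were far apart, and the cells alone had only 3.23 to 19.4 CPM. Xlr3b, a gene of an X-linked family of close copies between which counting may split reads, was at 2.67 to 7.21 CPM on day 1 and 9.79 to 17.8 on day 2 (1.81, SE 0.21). Car2, carbonic anhydrase 2, was at 12.3, 13.2 and 16.6 CPM in control and 4.3 and 3.76 in STZ co-cultures on day 1 and at 18.9 and then 23, 24.1 and 19.8 on day 2. Its difference of 1.76 (SE 0.41, adjusted p = 0.0156) was 0.43 within control and 2.47 within STZ co-cultures, and these differed (adjusted p = 0.00686); its adjusted p was 0.0662 without STZ replicate 1 and 0.0766 without STZ replicate 5.

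**Figure D2:**
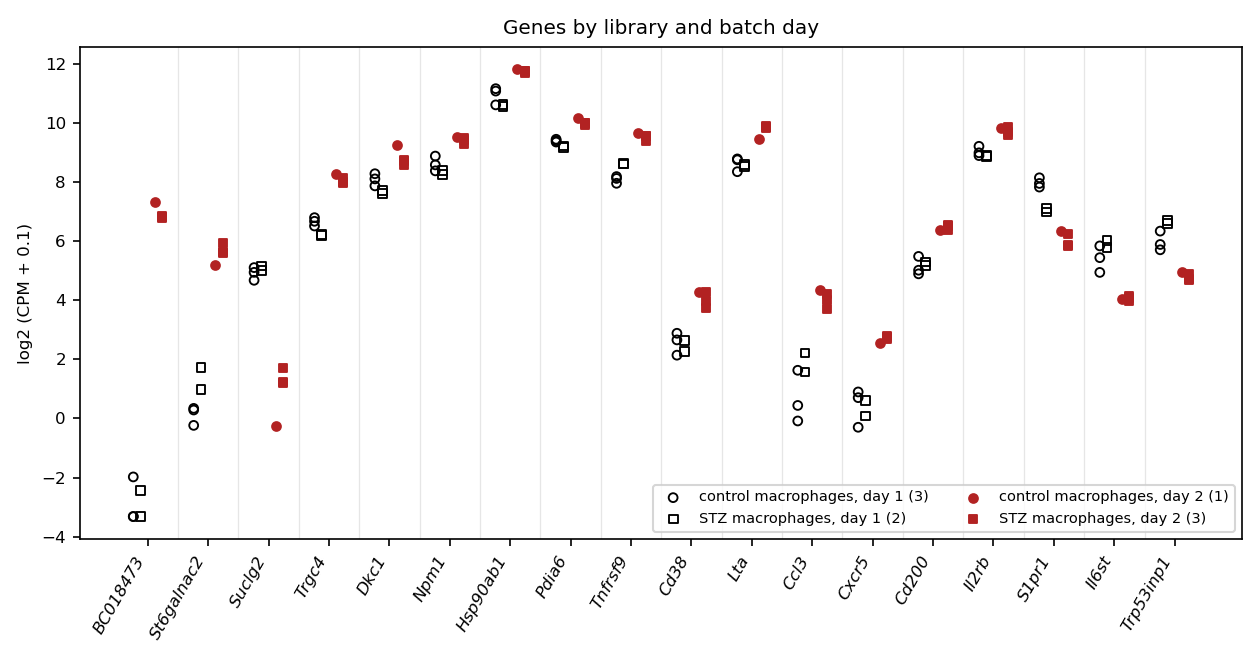
Level of selected genes in each of the 9 co-cultures as log2 of CPM plus 0.1 (vertical axis), with day 1 and day 2 and the 2 treatments marked. The genes called in every version, such as Dkc1, Npm1 and Suclg2, separate by day in both treatments, which their selection favours.

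Activation genes were higher on day 2. Of 23 tested, 13 were higher and 2 lower (median 0.65), against 2 higher and 4 lower with STZ (median -0.11), and leaving out single libraries left 11 to 13 higher. Without STZ replicates 1 and 5 together 12 were higher and 1 lower. With the cells alone in the fit the count was 2, at a median of 0.84. Tnfrsf9 (4-1BB), a costimulatory receptor of recently activated T cells, was at 293, 250 and 281 CPM in control and 395 and 402 in STZ co-cultures on day 1, and at 810 with control and 757, 756 and 682 with STZ macrophages on day 2. The log2 difference was 1.15 (SE 0.14, adjusted p = 0.00305, edgeR), with 1.56 within control and 0.88 within STZ co-cultures (adjusted p of that difference 0.0399). Tfrc, the transferrin receptor through which growing cells take up iron, was at 1151, 1199 and 1446 with control and 934 and 901 with STZ macrophages, and on day 2 at 2621 and then 1769, 1586 and 1598, a difference of 0.93 (SE 0.10).

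Cd44, the adhesion receptor that marks antigen-experienced cells, was at 110 to 151 CPM on day 1 and 168 to 264 on day 2 (0.75, SE 0.10), and Cd38, an ectoenzyme of activated cells, at 4.32 to 7.3 and 13.4 to 19.5 (1.62, SE 0.22). Neither overlapped. Il2ra (CD25), the high-affinity interleukin 2 receptor chain, was at 1106 to 1764 on day 1 and 2168 to 2634 on day 2 (0.67, SE 0.14, adjusted p = 0.0109), and Il2rb, the chain it signals through, at 469 to 597 and 783 to 946 (0.83, SE 0.10). Every day 2 library was above every day 1 library for both. STZ lowered Tfrc (-0.54) and Cd44 (-0.45), and for Il2ra and Il2rb the STZ difference was -0.11 (adjusted p = 0.584) and -0.13 (adjusted p = 0.348).

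Secreted factors followed. Of 30 tested cytokine and chemokine genes, 12 were higher and 1 lower on day 2 (median 0.64), and STZ raised 6 and lowered 1 (median 0.60). The higher count was 6 without STZ replicate 1 or 5. Lta, the lymphotoxin chain, was at 444, 329 and 435 CPM with control and 372 and 390 with STZ macrophages on day 1, and at 705 and then 932, 954 and 913 on day 2, 1.11 higher (SE 0.14, adjusted p = 0.00305, edgeR) and without overlap. Its STZ difference was 0.10 (adjusted p = 0.601).

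Ccl3, a chemokine for monocytes and T cells, was at 0.843, 1.26 and 3 CPM in control and 2.88 and 4.55 in STZ co-cultures on day 1 and at 20.2 and then 16, 12.9 and 18.4 on day 2 (2.69, SE 0.43). Xcl1, which draws cross-presenting dendritic cells, was at 0.714, 1.34, 2.04, 0.518 and 0.424 on day 1 and at 5.83 and then 3.53, 5.29 and 8.45 on day 2 (3.01, SE 0.49). Both kept the days apart and stayed low in absolute level. Macrophages also make Ccl3, and macrophage markers were higher on day 2 as given below; the part of this in the difference was not tested.

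Ccl22, which attracts regulatory T cells, and Il24, a cytokine of the interleukin 10 family, varied with both factors. Ccl22 was at 0.26, 0.384 and 0.631 CPM in control and 5.26 and 3.9 in STZ co-cultures on day 1 and at 2.4 and then 19.6, 19.6 and 29.2 on day 2. Its day difference was 2.38 (SE 0.28) and its STZ difference 3.35 (adjusted p = 0.00144). Il24 rose from 12.9, 10.7 and 16.5 to 34 with control and from 30.5 and 35.5 to 62.6, 86.3 and 78.2 with STZ macrophages, with a day difference of 1.26 (SE 0.17) and an STZ difference of 1.25 (adjusted p = 0.00731).

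Ifng, the main cytokine of T helper 1 cells, was at 1.33, 11.7 and 11 CPM with control and 24.5 and 22.1 with STZ macrophages on day 1, and at 40.8 and then 86.9, 85.4 and 78.8 on day 2. The days did not overlap, and the difference was 2.04 (SE 0.51, adjusted p = 0.0198), but the adjusted p was 0.0992 without control replicate 3 and 0.053 without STZ replicate 5. Ccl1, a chemokine of activated T cells, was at 8.86, 6.57 and 15.1 in control and 0.804 and 0.706 in STZ co-cultures on day 1 and at 11.8 and then 15, 21.5 and 16.8 on day 2. Its difference of 3.23 (SE 0.99, adjusted p = 0.0402) was 0.22 within control and 4.55 within STZ co-cultures, which differed (adjusted p = 0.00373). Its call was lost without control replicate 1 or 2 or any 1 STZ replicate, with adjusted p of 0.0615 to 0.2.

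Some cytotoxic and natural killer receptor genes were higher on day 2, with a larger list median within control than within STZ co-cultures. Of 18 tested genes of T helper 1 and cytotoxic cells, 6 were higher and 1 lower (median 0.37, with 1.03 within control and -0.03 within STZ co-cultures), and without control replicate 3 the count was 1 higher and 0 lower. Nkg7, of cytotoxic granules, was at 80.5, 164 and 200 CPM in control and 172 and 178 in STZ co-cultures on day 1, and at 501 and then 358, 376 and 274 on day 2 (1.27, SE 0.27, adjusted p = 0.0123, edgeR; 0.0809 without control replicate 3). Gzmk, a granzyme, was at 0.681, 0.0768 and 0.33 with control and 0 in both STZ co-cultures of day 1 and at 3.43 and then 5.75, 2.73 and 6.3 on day 2, which is near the limit of detection on day 1.

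Klrk1 (NKG2D), an activating receptor, was at 3.8, 10.1 and 10.6 CPM with control and 28.3 and 30.7 with STZ macrophages on day 1, and at 75.9 with control and 57.8, 62.5 and 49.7 with STZ macrophages on day 2. Klrc2, of the NKG2 family, was at 1.46, 0.937 and 1.59 and then 11.4 and 11.9 on day 1, and at 15.4 and then 16.6, 15.1 and 16.3 on day 2. On day 1 both STZ co-cultures were above all 3 controls. On day 2 the control was above the STZ co-cultures for Klrk1 and among them for Klrc2. The day difference was 3.21 within control and 0.94 within STZ co-cultures for Klrk1, and 3.56 and 0.46 for Klrc2, and the difference between treatments passed the test for both (adjusted p = 0.0424 and 0.00207). The pooled difference of Klrk1 was 1.89 (adjusted p = 0.0179, and 0.1 without control replicate 3). For Klrc2 it was 1.75 (adjusted p = 0.041), and leaving out any 1 library but STZ replicates 2 and 5 gave adjusted p of 0.053 to 0.192. Klre1, a neighbour of both on chromosome 6, differed by 2.41 at 0 to 0.57 CPM on day 1 and 1.47 to 2.52 on day 2 (adjusted p = 0.0197), with 0.0953 without control replicate 3 and 0.0502 without STZ replicate 5.

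Of the 12 inhibitory receptor genes tested, 5 were higher and 1 lower on day 2 (median 0.57), and 4 or 5 higher without any 1 library. Cd200, a ligand that restrains myeloid cells, was at 44.9, 29.8 and 32.4 CPM with control and 39.4 and 36.3 with STZ macrophages on day 1, and at 83.1 and then 84.1, 93.3 and 91.8 on day 2. Day 2 was above day 1 throughout, by 1.23 (SE 0.14, adjusted p = 0.00305, edgeR), and the STZ difference was 0.10 (adjusted p = 0.651). Havcr2 (TIM-3) was at 3.47, 3.55 and 4.83 in control and 12 and 11.7 in STZ co-cultures on day 1 and at 20 and then 28.2, 30 and 30.2 on day 2, with a day difference of 1.72 (SE 0.22) and an STZ difference of 1.16 (adjusted p = 0.0164). Pdcd1 (PD-1) differed by 0.94 (SE 0.15) and fell with STZ by 0.67 (adjusted p = 0.0231).

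Vsir (VISTA), an inhibitory receptor of resting T cells, was the member that fell. It was at 120, 115 and 97.6 CPM with control and 138 and 140 with STZ macrophages on day 1 and at 23.8 and then 75.7, 59.5 and 59.6 on day 2, against 224 to 571 in the cells alone. The day difference was -1.50 (SE 0.23, adjusted p = 0.00457), or -2.22 within control and -1.10 within STZ co-cultures (adjusted p of that difference 0.0218).

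Genes of the naive state were lower on day 2 in part. Of 20 tested, 7 were lower and 1 higher (median -0.31), and STZ lowered 6 (median -0.43). The lower count was 4 without STZ replicate 5, and 1 with the cells alone in the fit (median -0.13). Within control co-cultures the median day difference of the list was 0.03, and within STZ co-cultures it was -0.32. Without STZ replicates 1 and 5 together the median was 0.08. S1pr1, the receptor for leaving lymph nodes, was at 285, 229 and 250 CPM in control and 138 and 127 in STZ co-cultures on day 1, and at 80.8 and then 76.4, 57.7 and 59 on day 2, where the cells alone had 1241 to 2039. Its day difference was -1.27 (SE 0.16, adjusted p = 0.00316, edgeR) and its STZ difference -0.71 (adjusted p = 0.0243). The order ran from day 1 controls through day 1 STZ co-cultures to day 2, with no overlap between days.

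Ccr7, the lymph node homing receptor, was at 594 to 799 CPM on day 1 and 426 to 459 on day 2 (-0.56, SE 0.09), also without overlap. Tcf7, the transcription factor of naive and memory cells, was at 302, 194 and 211 in control and 103 and 94.5 in STZ co-cultures on day 1 and at 129 and then 61.5, 77.4 and 63.5 on day 2. Its days overlapped, its day difference was -0.67 (SE 0.17, adjusted p = 0.0184, and 0.0634 without control replicate 3), and its STZ difference was -1.14 (adjusted p = 0.0079).

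Of the follicular helper genes, 4 of 11 were higher and 4 lower, and 2 held in all 23 versions. The lower count was 1 without control replicate 3 and 2 without STZ replicate 3 or 5. Cxcr5, the receptor that leads T cells into B cell follicles, was at 0.714, 1.77, 1.53, 0.959 and 1.44 CPM on day 1 and at 5.79 and then 6.77, 6.64 and 6.42 on day 2 (2.32, SE 0.31, adjusted p = 0.00328, edgeR). Il6st (gp130), the signalling chain of the interleukin 6 receptor, was at 43.6, 57.5 and 30.8 with control and 65.1 and 55.1 with STZ macrophages on day 1, and at 16.5 and then 17.8, 15.7 and 17 on day 2 (-1.67, SE 0.21). Neither overlapped. STZ made a difference of -0.02 to Cxcr5 (adjusted p = 0.961) and 0.28 to Il6st (adjusted p = 0.314).

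Cell cycle genes were called in both directions, with small medians. Of 42 DNA replication genes, 15 were higher and 4 lower on day 2 (median 0.16), while STZ raised 3 and lowered 11, and of 39 mitosis genes 12 were higher and 6 lower (median 0.21), while STZ raised 1 and lowered 13. The higher count of replication genes was 9 without STZ replicate 1, and without STZ replicates 1 and 5 together it was 8, beside 8 lower. That of mitosis genes was 3 without STZ replicate 3 or 5, 4 without STZ replicate 1, 6 without STZ replicate 4 and 7 without STZ replicate 2. More mitosis genes were lower than higher without STZ replicates 1 and 5 together (5 against 1) and without STZ replicates 2 and 4 together (7 against 3), and 7 stood on each side with a GC trend per library removed. Mcm10, which starts replication forks, was at 238, 210 and 263 CPM in control and 179 and 167 in STZ co-cultures on day 1 and at 359 and then 275, 263 and 258 on day 2 (0.61, SE 0.09, adjusted p = 0.00451, edgeR). Its groups overlapped across treatments. Cdc6, which loads the replication helicase, differed by 0.76 (SE 0.12), Cdk1, the kinase of mitotic entry, by 0.56 (SE 0.11), and its partner Ccnb1 by 0.64 (SE 0.12).

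Ccnb2, the other mitotic B-type cyclin named here, went against its partner gene. It was at 113, 182 and 74.5 CPM with control and 292 and 272 with STZ macrophages on day 1 and at 30 and then 76.5, 44.4 and 63.4 on day 2, a difference of -2.14 (SE 0.28, adjusted p = 0.00332). Mki67, the usual marker of cycling cells, was at 267 to 426 on day 1 and 289 to 429 on day 2, and its difference of 0.27 (SE 0.14) did not pass (adjusted p = 0.188).

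**Figure D3:**
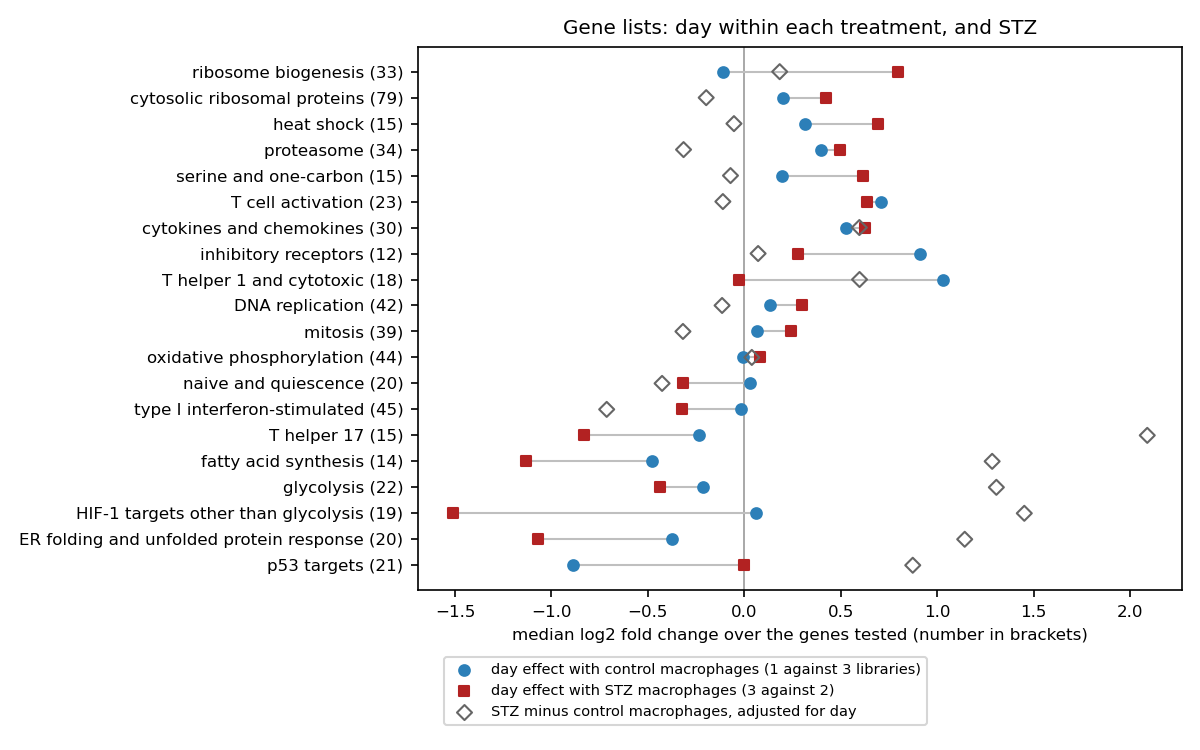
Median log2 fold change of each gene list (horizontal axis) for day within control co-cultures, day within STZ co-cultures and STZ against control, with the number of genes tested in brackets. Activation (0.71 and 0.64) and proteasome (0.40 and 0.49) have positive day medians in both treatments, while ribosome biogenesis (-0.11 and 0.80) and HIF-1 targets (0.06 and -1.51) do not match between treatments.

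Most interferon-stimulated genes were lower with STZ, and fewer were lower on day 2. Of 45 tested type I targets, 32 were lower with STZ (median -0.71, beside 0.07 for all genes), and for day 14 were lower and 2 higher (median -0.17). Without STZ replicates 1 and 5 together, 5 were lower and 3 higher for day (median 0.03), and with the cells alone in the fit 1 was lower (median 0.02). Oas2, an antiviral enzyme, was at 121, 138 and 170 CPM in control and 68 and 70.9 in STZ co-cultures on day 1, and at 63.8 and then 37.6, 33.9 and 27.9 on day 2. The day difference was -1.10 (SE 0.14, adjusted p = 0.00316, edgeR) and the STZ difference -1.01 (adjusted p = 0.00731). Irf7, the transcription factor that amplifies the response, was at 317 to 442 on day 1 and 184 to 255 on day 2 (-0.66, SE 0.10), but at -0.17 (adjusted p = 0.427) once a GC trend per library was removed. Ifit3 differed by -0.65 (SE 0.15) for day and -1.15 for STZ, with overlapping days. Ifi27, another interferon target, rose instead, from 94.3, 98.1 and 101 with control and 122 and 138 with STZ macrophages to 201 and then 187, 196 and 194 (0.75, SE 0.11).

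Genes of sugar and lipid metabolism that passed the test were mostly lower on day 2 and higher with STZ. Both terms come from the same libraries, and the 2 STZ co-cultures of day 1 were the highest for most of these genes. Of 22 glycolysis genes, 10 were lower and 1 higher on day 2, and 12 were higher and 0 lower with STZ (medians -0.68 and 1.31). The median day difference of the list was -0.21 within control and -0.44 within STZ co-cultures. Its sum, scaled to the library total, was 14059 to 15034 CPM in day 1 and 14900 in day 2 control co-cultures. In STZ co-cultures it was 25289 to 26494 on day 1 and 21308 to 22389 on day 2. The day count was 4 lower and 4 higher without STZ replicates 1 and 5 together, 6 lower without STZ replicate 3 or 5 and 5 without STZ replicate 4.

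Slc2a3 (GLUT3), a glucose transporter, was at 66.7, 74.7 and 69.6 CPM with control and 441 and 431 with STZ macrophages on day 1, and at 46.1 with control and 139, 109 and 120 with STZ macrophages on day 2. The STZ co-cultures were above the controls on each day, and the day difference was -0.61 within control and -1.83 within STZ co-cultures (adjusted p of that difference 0.00581, edgeR). Slc2a1 (GLUT1) was at 126, 152 and 144 with control and 367 and 385 with STZ macrophages, and on day 2 at 69.5 and then 287, 247 and 256; its day difference was -0.70 (SE 0.13) and its STZ difference 1.61 (adjusted p = 0.00103). Slc16a3, which exports lactate, differed by -2.65 (SE 0.52) for day and 3.64 for STZ. Hk2, the hexokinase induced on activation, differed by -1.07 (SE 0.25, adjusted p = 0.0149, and 0.0544 without STZ replicate 5) for day and 2.35 for STZ.

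Of 19 other targets of HIF-1, the transcription factor of the response to low oxygen, 7 were lower on day 2 and 0 higher. With STZ 10 were higher (medians -0.83 for day and 1.45 for STZ). The median day difference of this list was 0.06 within control and -1.51 within STZ co-cultures. Without control replicate 3 the lower count was 16, and without STZ replicates 1 and 5 together it was 3, with 2 higher. Ndrg1, a stress-induced gene of this group, was at 43.1, 33.1 and 31 CPM in control and 139 and 139 in STZ co-cultures on day 1, and at 4.66 and then 25.8, 20.9 and 28 on day 2. All day 2 libraries lay below day 1, by -2.65 (SE 0.18, adjusted p = 0.00044, edgeR), with -2.94 within control and -2.48 within STZ co-cultures. P4ha1, which modifies collagen, differed by -0.86 (SE 0.10) and overlapped. Bnip3l, which marks mitochondria for removal, was at 132, 136 and 137 with control and 257 and 258 with STZ macrophages on day 1 and at 104 and then 118, 118 and 116 on day 2. Its difference was -0.37 within control and -1.13 within STZ co-cultures (adjusted p of that difference 0.0151).

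Of 14 fatty acid synthesis genes, 8 were lower and 1 higher on day 2, and 8 were higher and 0 lower with STZ (medians -0.79 and 1.28). Here the median day difference was -0.48 within control and -1.13 within STZ co-cultures. Leaving out any 1 library left 8 lower, and leaving out STZ replicates 1 and 5 together left 2 lower and 3 higher. Scd2, a desaturase, was at 273, 359 and 300 CPM with control and 995 and 951 with STZ macrophages on day 1, and at 167 and then 477, 408 and 448 on day 2, a day difference of -1.04 (SE 0.11, adjusted p = 0.00282, edgeR) beside an STZ difference of 1.56. Within each treatment day 2 was the lower, and across treatments the days overlapped. Fasn, fatty acid synthase, differed by -2.25 (SE 0.38) and Elovl5, an elongase, by -0.72 (SE 0.13). Elovl5 did not overlap and had an STZ difference of 0.18 (adjusted p = 0.331).

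Of 21 p53 targets, 6 were lower on day 2 and 0 higher (median -0.28), and without control replicate 3 the counts were 5 lower and 6 higher. Trp53inp1, which promotes p53 activity and autophagy, was at 59.5, 81.4 and 52.5 CPM with control and 105 and 96.6 with STZ macrophages on day 1 and at 30.9 and then 29.9, 26.1 and 25.6 on day 2. It did not overlap, fell by 1.56 (SE 0.20, adjusted p = 0.00317, edgeR) and was called in all 23 versions. Mdm2, the ligase that keeps p53 low, differed by -1.20 (SE 0.16) for day and 1.85 for STZ, with overlapping days.

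The largest falls among genes of at least 3 mean log2 CPM were in genes of high GC content. By the rule for naming genes, 12 stood at the low end, and 11 of them beside Suclg2 were Jak3, Abhd8, Junb, Hist1h2ap, Vars, Tnfrsf25, Galk1, Nop53, Fcho1, Abca7 and Nr1h2, with 53.9 to 64.5% GC over their exons, where the highest quintile of all genes begins at 54.3%. Jak3, the kinase of the common gamma chain receptors, was at 3.57, 12.4 and 1.47 CPM in control and 300 and 175 in STZ co-cultures on day 1, and at 0.931 and then 3.91, 1.32 and 2.58 on day 2. Only STZ replicates 1 and 5 were high, and the controls overlapped with day 2. The pooled difference was -5.13 (SE 1.02, adjusted p = 0.00965, edgeR), and it was -3.69 (adjusted p = 0.0622) with a GC trend per library removed.

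Junb, an AP-1 subunit, was at 2.6, 4.85 and 2.31 CPM with control and 251 and 70.2 with STZ macrophages on day 1 and at 0.907 and then 3.42, 1.94 and 3.11 on day 2 (-4.38, SE 0.88; -2.50 with adjusted p = 0.174 after the GC correction). Vars, the valyl-tRNA synthetase, had 106 and 37.5 in the same STZ co-cultures and 0.756 to 3.41 in the other 7 libraries. Its adjusted p of 0.0161 became 0.054 without STZ replicate 3, 0.0566 without STZ replicate 4 and 0.131 with the GC correction, and its day difference was -1.39 within control and -6.02 within STZ co-cultures (adjusted p of that difference 0.0158). Hist1h2ap, a histone gene, had 162 in STZ replicate 1, 14 in STZ replicate 5 and 0.675 to 2.98 elsewhere; its adjusted p was 0.0345, 0.0891 without STZ replicate 2, 0.101 without STZ replicate 3, 0.104 without STZ replicate 4 and 0.484 with the GC correction. Abhd8 had 95.2 and 16.8 CPM in STZ replicates 1 and 5 and 0.417 to 3.52 elsewhere (-4.41, SE 0.73).

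The other 6 had a second pattern, with day 1 controls spread widely. Fcho1, of clathrin-coated pits, was at 38.7, 114 and 8.56 CPM with control and 222 and 214 with STZ macrophages on day 1, and at 1.47 and then 33.9, 6.67 and 17.5 on day 2 (-4.04, SE 0.89, adjusted p = 0.013). Abca7, a lipid transporter, was at 23.9, 93.1 and 9.49, then 116 and 108, and on day 2 at 1.62 and then 13, 4.26 and 9.38 (-4.01, SE 0.75). In both the day 1 controls reached from the range of day 2 to close to that of the STZ co-cultures. Galk1, galactokinase, Nr1h2, the oxysterol receptor LXR beta, Nop53, of ribosome assembly, and Tnfrsf25, the death receptor DR3, differed by -4.09, -4.01, -4.07 and -4.13. Nr1h2 lost its call with the GC correction (-2.38, adjusted p = 0.0654).

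Furin, a protease that activates many secreted proteins, was at 3.05, 4.39 and 3.66 CPM in control and 109 and 84.6 in STZ co-cultures on day 1 and at 1.18 and then 4.72, 3.73 and 5.07 on day 2. Its day difference was -1.66 within control and -4.43 within STZ co-cultures (adjusted p of that difference 0.00279, edgeR). Arrb1, beta-arrestin 1, was at 2.66, 4.02 and 2.22 with control and 50.1 and 48.9 with STZ macrophages on day 1 and at 8.29 and then 8.02, 7.05 and 7.18 on day 2. It went up with day in control co-cultures (1.47, adjusted p = 0.00983) and down in STZ co-cultures (-2.74, adjusted p = 0.000297), and the adjusted p of the difference was 0.00169. Without control replicate 3 its day difference was -2.74 (adjusted p = 0.000418).

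Of 19 genes of regulatory T cells, 6 were higher and 1 lower on day 2 (median 0.14). The list's sum, scaled to the library total, was 2816 to 3488 CPM on day 1 and 4440 to 4936 on day 2, so every day 2 library was above every day 1 library. Most of the sum is in genes that activated T cells also express, and 5 of the 6 higher genes kept the days apart: Il2ra, Tnfrsf9, the costimulatory receptors Tnfrsf18 (0.46) and Tnfrsf4 (0.59), and, narrowly, Il10 (1.62), an inhibitory cytokine. Izumo1r, the folate receptor 4 of regulatory T cells, was the sixth (0.53), with overlap, and Nrp1, a surface marker of thymus-derived regulatory cells, was the lower one (-1.82). The higher count was 3 without STZ replicates 2 and 4 together or without the treatment term, and 1 with the cells alone in the fit.

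Foxp3, the factor of regulatory T cells, was at 101, 50.9 and 54 CPM in control and 5.6 and 6.98 in STZ co-cultures on day 1, and at 11.9 with control and 10.6, 17.2 and 19.2 with STZ macrophages on day 2. The 3 day 1 controls stood above all others. Its day difference was -2.52 within control and 1.32 within STZ co-cultures (adjusted p of that difference 0.0066, edgeR), with a pooled value of 0.20 (adjusted p = 0.882), which became 1.32 (adjusted p = 0.0297) without control replicate 3. Il17a was at 0.184 to 0.882 in all 4 controls and at 8.32 and 9.38 on day 1 and 5.95, 7.61 and 9.94 on day 2 in STZ co-cultures, a day difference of 0.38 (SE 0.41, adjusted p = 0.514) beside an STZ difference of 4.08 (adjusted p = 0.00397). Il22 was at 389 and 418 in STZ co-cultures of day 1 and at 47.4, 69.9 and 217 in those of day 2, against 8.86 to 22.9 in the controls, and its day difference of -1.35 (SE 0.51) did not pass (adjusted p = 0.0799). Of 15 T helper 17 genes, 5 were lower on day 2 and 0 higher, and 7 were higher with STZ; the lower count was 0 without STZ replicate 1, 3 or 5 and 2 without STZ replicate 2 or 4.

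Over all genes, the day difference itself differed between the treatments for 1577 of 17530 tested (9%), upward with STZ for 996 (5.68%) and downward for 581 (3.31%). The upward share of these genes was 63.2%, and 41.4% with a GC trend per library removed. Of the genes called for day in the pooled model, 336 (2.07% of the 16196) were also among these. Taken within control co-cultures, day was called for 1040 genes as higher (5.93%) and 2006 as lower (11.4%), and within STZ co-cultures for 1647 as higher (9.4%) and 2575 as lower (14.7%). The control arm of this test on day 2 is 1 library, taken to vary like the others. Without STZ replicate 1 the number was 889, without STZ replicate 2 it was 1044 and without STZ replicate 4 it was 1012.

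**Figure D4:**
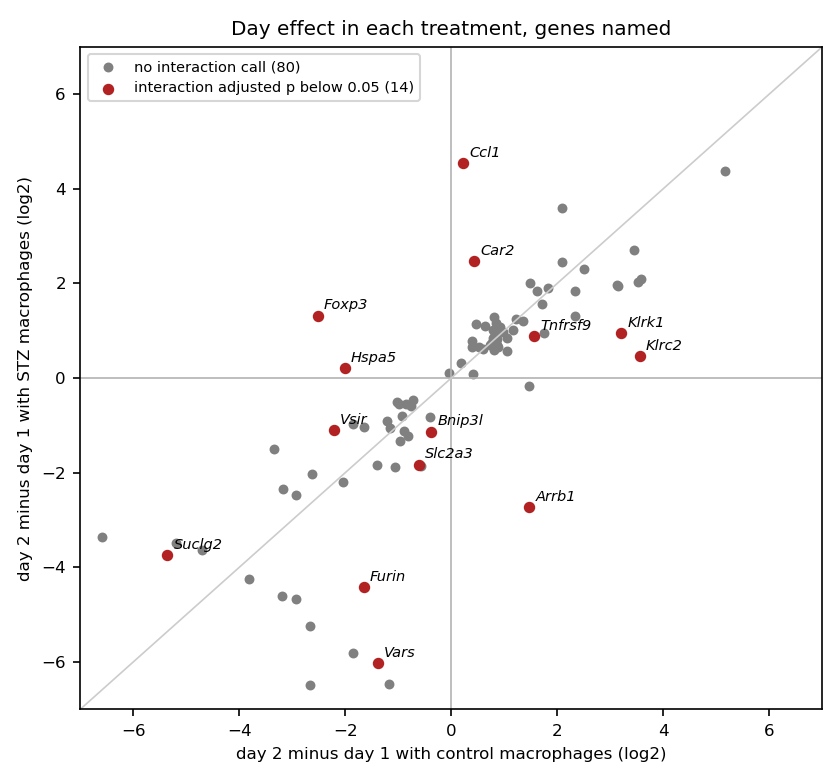
Day 2 minus day 1 on the log2 scale within control co-cultures (horizontal axis) and within STZ co-cultures (vertical axis) for 94 of the named genes, with the 14 whose difference between treatments passed the test marked; 6 with a value beyond 7 are not drawn. Foxp3 (-2.52 and 1.32) and Arrb1 (1.47 and -2.74) lie in the quadrants of opposite sign.

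Traces of other cells in the sorted samples moved with day and with single libraries. In bulk RNA, fewer cells of a type and less RNA per cell cannot be told apart, for these markers and for all genes above. Macrophage markers summed to 270.5 to 324 CPM in day 1 and 447 in day 2 control co-cultures, and to 214 to 240 and 235 to 378 in STZ co-cultures, where the sums are scaled to the library total alone. Most of this is Ctss, at 179 to 392 CPM, which T cells express too, and the cells alone summed to 181 to 386. Of 20 macrophage genes tested, 11 were higher on day 2 and 0 lower, and without control replicate 3 the count was 3. It was 7 without control replicate 1, 5 without STZ replicate 1, 3 or 4 and 6 without STZ replicate 5. Of the 25 markers, 5 had every day 2 library above day 1, 9 were at 0 in at least 1 library and Cd163 was at 0 in all.

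Lyz2, lysozyme of myeloid cells, was at 1.14, 1.64 and 2.34 CPM with control and 7.67 and 7.6 with STZ macrophages on day 1, and at 19.8 and then 10.2, 41.8 and 42.3 on day 2 (2.64, SE 0.48, adjusted p = 0.00737, edgeR). Cd68, a lysosomal protein of macrophages, was at 1.69 to 3.33 and 4.77 to 15.9 (1.88, SE 0.37), and Adgre1 (F4/80) at 0.162 to 0.931 and 1.53 to 4.34 (2.43, SE 0.56; adjusted p = 0.0151, and 0.0887 without control replicate 3). All 3 were without overlap between days. Spp1 (osteopontin), which macrophages, duct cells and activated T cells make, was at 0.571 to 4.83 CPM on day 1 and at 11.3 and then 41.3, 11.3 and 35.3 on day 2 (3.00, SE 0.44). The part of macrophage RNA in the day differences of Ccl3, Ccl22 and Spp1 was not tested.

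Of 14 acinar and ductal markers, 10 were at 0 in every co-culture, among them Cpa1, Pnlip, Krt19 and Sox9. Their sum was 1.73 to 7.11 CPM on day 1 and 11.9 in control and 13.3 to 41.9 in STZ co-cultures on day 2, with no overlap. Most of it was Spp1, and without Spp1 the sum was 0.473 to 2.23 on day 1 and 1.40 to 2.25 on day 2, with overlap. Prss2, a trypsinogen of acinar cells with close copies between which counting may split reads, was at 0.0571 to 0.163 CPM on day 1 and 0.23 to 0.898 on day 2 and kept the days apart at these low levels (2.02, adjusted p = 0.0452, edgeR).

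Islet endocrine markers summed to 0.06 to 1.03 CPM on day 1 and to 1.47 and then 3.08 to 151.8 on day 2. Gcg, the glucagon gene of alpha cells, was at 62 CPM in STZ replicate 2 and 80.9 in STZ replicate 4, at 0.189 in STZ replicate 3 and 0.0735 in control replicate 3, and had 2 counts over all day 1 libraries. Pooled levels had a ratio of 3642 (95% counting interval 1008 to 30083), which describes 2 libraries. Of 10 endocrine genes tested, 6 were higher on day 2, 1 without those 2 libraries, 0 without STZ replicate 1 and 1 without STZ replicate 5. It was 4 without control replicate 1 or 3 and 3 without STZ replicate 2 or 4.

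Some neutrophil genes were seen mainly in the 2 STZ co-cultures of day 1. Mpo, myeloperoxidase, was at 11 and 12.8 CPM there and had 0 counts in the other 7 co-cultures, so that pooled day 1 libraries were at least 253-fold higher than the day 2 libraries at a floor of 3 counts over the group. Chil3, chosen after its values were seen, was at 9.41 and 9.43 in the same libraries and at 0 to 0.0307 in the others, at least 202-fold higher by the same floor. S100a8, S100a9 and Elane were likewise at 1.77 to 4.18 CPM in these 2 libraries and at 0 to 0.15 in the others. Ly6g did not follow, at 0.103 and 0.428 CPM there and up to 1.23 in control replicate 4, and Retnlg, Cpa3 and Mcpt4 were at 0 in all 9. Of 6 neutrophil and mast cell genes tested, 5 were lower on day 2, and 0 without STZ replicate 1 or STZ replicate 5. CD8 and natural killer cell markers summed to 45.6 to 48.2 CPM in day 1 and 139 in day 2 controls, and to 81.9 to 89.7 and 104 to 125 in STZ co-cultures. Cd8a itself was at 0.656 to 8.17 CPM on day 1 and 4.06 to 6.91 on day 2, and Ncr1 was at 0 in 8 of the 9 libraries.

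**Figure D5:**
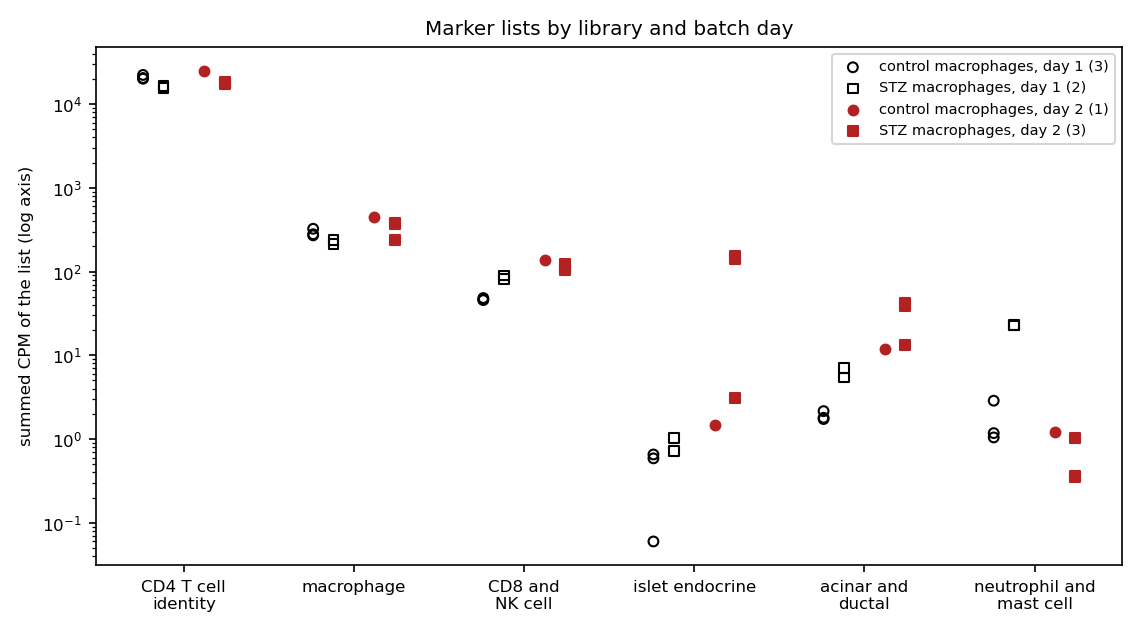
Summed CPM of marker lists (vertical axis, log scale) in each co-culture, by day and treatment. CD4 identity genes stay between 15502 and 25147, while endocrine markers reach 151.8 in an STZ co-culture of day 2 and neutrophil markers 23.0 in the STZ co-cultures of day 1.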

How the data were processed

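Per the labels' protocols, RNA from a column kit was made into unstranded cDNA, and paired reads were aligned to GRCm38. Sources used here do not name an aligner, counter or annotation. DESeq2 is named, with no version, in the submitters' processing notes. The authors deposited a table of estimated counts for 55774 gene entries, with no normalization, in which 407 entries share a symbol and 0 value columns were left unmatched. They also deposited log2 values adjusted by a method those sources do not name; its name refers to surrogate variable analysis, so batch day may have been removed, and it served only as an alternative.

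Counts of the 9 co-cultures were rounded and tested in edgeR 4.0.16 (R 4.3.3) with terms for batch day and macrophage treatment, after filterByExpr and TMM scaling, by robust quasi-likelihood F tests with Benjamini-Hochberg adjustment over 16196 genes and a threshold of 0.05. A second model with 1 mean per treatment and day tested whether the day difference differed between treatments. The SE of a log2 fold change is its size divided by the root of F. The day test was also run on simulated counts with known changes, drawn with no STZ effect and no GC trend. CPM of co-cultures use TMM-scaled totals; CPM of the cells alone and marker sums use totals. Pooled ratios use a floor of 3 counts over a group and exact 95% intervals, which cover counting error only, as there are no molecular identifiers. GC content (97.1% of genes tested) and positions come from GENCODE vM21 (GRCm38), promoters from RefSeq GRCm38.p6.

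Alternatives were DESeq2 1.42.0, other scalings and filters, each library left out, all 13 libraries, a GC offset and no treatment term. STZ co-cultures were also fitted alone, and the day difference within control co-cultures came from the model with 1 mean per treatment and day. The replicate block and limma 3.58.1 on the authors' log2 values were used as well. The comparison, the gene lists and the tests were chosen with earlier results of these data known. Genes were named if they were among the 12 highest or 12 lowest changes of called genes at a mean of at least 3 log2 CPM (gene models, receptor segments and mitochondrial genes excluded), among at most 4 of smallest p in a list described, or among 14 fixed genes.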

Additional observations from a re-analysis of the deposited data

Results flagged for a closer look

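Libraries were compared within each day. A library was set apart when its gap to the nearest other one exceeded Dixon's 95% limit as a share of the group's range. For libraries of 1 population, chance alone does this in about 1 of 20 groups. Treatment was not removed. Day 2 held 1 control beside 3 STZ co-cultures, so a gene that differs with STZ can set that control apart. The share below therefore cannot be read against that rate. Of 200 day groups over the 100 named genes, 18 (9%) met this, and in 14 of them the library was control replicate 3, the only control of day 2. It was the highest for Psmc1 (gap 0.835 of the range), Ifit3 (0.873) and BC018473 (0.891). It was the lowest for Ccl22 (0.839), Lta (0.854), Ifng (0.871), Havcr2 (0.831), Slc2a1 (0.895), Ndrg1 (0.836), Bnip3l (0.845), Scd2 (0.852), Mdm2 (0.875), Abhd8 (0.886) and Hspa5 (0.833). On day 1, control replicate 1 was the lowest for Nkg7 (0.780) and Ifng (0.724). Control replicate 1 for Gcg and STZ replicate 1 for St6galnac1 had a gap equal to the whole range (1), since the other day 1 libraries were at 0.

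The day effect with STZ macrophages minus that with control macrophages passed edgeR's test (adjusted p below 0.05) for 14 named genes. It was positive for Vsir (1.13), Car2 (2.04), Ccl1 (4.33), Suclg2 (1.61), Foxp3 (3.84) and Hspa5 (2.22). It was negative for Tnfrsf9 (-0.68), Slc2a3 (-1.22), Bnip3l (-0.76), Klrk1 (-2.27), Klrc2 (-3.09), Vars (-4.63), Furin (-2.77) and Arrb1 (-4.21). For Suclg2 the effects were -5.36 with control and -3.75 with STZ macrophages, both toward lower levels on day 2, and the adjusted p was 0.0331. Among these 14, the 2 effects pointed in opposite directions for Foxp3, Arrb1 and Hspa5.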

How the results depend on the processing

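For day, 4530 genes passed here. Counts within 1.5 times of it came from RLE scaling (4583), library totals (4298), DESeq2 (6275), no filter (3609), 1 CPM in 4 libraries (4366), the GC offset (4085), the GC offset without control replicate 3 (4123), STZ co-cultures alone (5546) and the day difference within control co-cultures in the model with 1 mean per treatment and day (3046). Outside that range were all 13 libraries (292), no treatment term (208), the authors' log2 values (0), STZ replicates 2 and 4 left out together (2272) and STZ replicates 1 and 5 left out together (2808, chosen after seeing the data). Leaving out single libraries gave 2510 to 4739. For STZ, DESeq2 gave 5606, all 13 libraries 42 and the authors' log2 values gave 46, and single libraries left out 518 to 3404. For the difference of day effects, DESeq2 gave 2473, all 13 libraries 1 and the authors' log2 values gave 426, and single libraries left out 889 to 1987; without control replicate 3 it could not be fitted. The cause of these shifts was not tested.

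With the replicate number as a block, 0 genes passed for day (897 at an unadjusted p below 0.05), 0 for STZ (1856) and 733 for the difference of day effects, and Foxp3 was at -0.058. Deviations of same-numbered control and STZ libraries from their treatment means correlated at 0.271, -0.342, 0.692 and 0.437. Day was not removed from them, and control replicate 2 and STZ replicate 5, both of day 1, correlated at 0.746. These values therefore cannot tell whether same-numbered libraries shared mice. The labels do not say so either, and the numbers were not taken to pair libraries.

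Of the 100 genes named, 58 lost their call with all 13 libraries, 57 without the treatment term, 29 without STZ replicates 1 and 5 and 9 without a filter. With the authors' log2 values, from which day may have been removed, 57 changed sign: Dkc1 -0.12, Wdr75 -0.049, Gnl3 -0.083, Npm1 -0.060, Stip1 -0.063, Hsp90aa1 -0.089, Hsp90ab1 -0.013, Pdia6 -0.10, Hsp90b1 -0.055, Manf 0.016, Psmc1 -0.094, Psmb7 -0.094, Rpl4 -0.11, Psat1 -0.10, Mcm10 -0.079, Cdc6 -0.14, Ccnb1 -0.0085, Cdk1 -0.043, Tfrc -0.11, Tnfrsf9 -0.17, Cd44 -0.13, Cd38 -0.13, Nkg7 -0.19, Cd200 -0.065, Havcr2 -0.16, Vsir 0.16, Pdcd1 -0.048, S1pr1 0.0077, Il2rb -0.090, Jak3 0.037, Ifi27 -0.17, Slc2a1 0.022, Fasn 0.027, Lyz2 -0.056, Cd68 -0.094, Klrk1 -0.063, Xlr3b -0.011, Ccl3 -0.052, St6galnac2 -0.16, Abhd8 0.37, Junb 0.12, Hist1h2ap 0.45, Suclg2 0.0064, Vars 0.0058, Galk1 0.033, Nop53 0.12, Fcho1 0.033, Abca7 0.11, Nr1h2 0.049, Cd4 -0.053, Cd3e -0.14, Mki67 -0.092, Foxp3 -0.20, Arrb1 0.31, Trgc4 -0.048, Hspa5 0.59 and Syvn1 0.11. Without the treatment term Cd4 was at -0.025, Foxp3 at -1.56 and Hspa5 at 0.027. In STZ co-cultures alone Il17a was at -0.12 and Hspa5 at 0.26, and within control co-cultures, in the model with 1 mean per treatment and day, Mpo was at 0, Cd4 at -0.049, Foxp3 at -2.52 and Arrb1 at 1.47. Without STZ replicates 2 and 4, Foxp3 was at -0.10 and Arrb1 at 0.11, and without STZ replicates 1 and 5, Cd4 was at -0.0017, Foxp3 at -2.47 and Arrb1 at 1.52. With the GC offset and without control replicate 3, Cd3e was at -0.043, Il17a at -0.33 and Hspa5 at 0.066. With single libraries left out, Il17a ran from -0.18 (without control replicate 3) to 0.60, Hspa5 from -0.91 to 0.20 (without control replicate 3) and Foxp3 from -0.70 to 1.32, below 0 without STZ replicate 1 (-0.70), 4 (-0.057) or 5 (-0.53).

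Day 2 has 1 control library, so a trait of that library and a day difference in control co-cultures cannot be told apart. In simulated counts with 15717 genes tested, 100 were changed by 1 on the log2 scale and 100 by 2. Of these, 42% and 84% were recovered for day. Far fewer genes were changed there than the 4530 called here, so these shares need not hold for these data. A call that was not made does not show that a gene did not differ.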

Other observations

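The first groups below were called for day in both directions or not at all. The share called was 38.6% for oxidative phosphorylation, 45.5% for cholesterol synthesis and 54.5% for redox defence, beside 28% of all genes tested. Of 44 nuclear genes of oxidative phosphorylation, the respiratory chain of mitochondria, 10 were higher and 7 lower on day 2, with a median log2 difference of 0.03. Of the 15 genes encoded by mitochondria, 0 passed in edgeR (0 at an unadjusted p below 0.05) and 0 in DESeq2, with a median of 0.20. Without STZ replicates 1 and 5 together 7 were higher. Their sum was 7707 to 12373 CPM in day 1 and 17290 in day 2 control co-cultures, and 14825 to 17252 and 11532 to 15956 in STZ co-cultures, so that the only high control was replicate 3. Of 22 cholesterol synthesis genes, 5 were higher and 5 lower. Of 22 redox defence genes, 8 were higher and 4 lower (median 0.30), with 4 higher without STZ replicate 1, 3, 4 or 5, 5 without control replicate 1 or 3, and 1 when the cells alone joined the fit.

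The T cell identity genes did not all hold still. Of 20 tested, 7 were higher and 1 lower on day 2 (median 0.21), and 11 were lower with STZ (median -0.37). The higher count was 1 without control replicate 3, STZ replicate 1, STZ replicate 3 or STZ replicate 5, and 3 without STZ replicate 2. Of 28 interferon gamma targets, 3 were higher and 4 lower (median 0.04), while Ifng itself was higher in every day 2 library than in any of day 1. The day term was called for 7 of 17 immediate-early and AP-1 genes, all lower (median -0.39), with 3 left without control replicate 1, STZ replicate 3 or STZ replicate 4 and 4 without STZ replicate 5.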
